A study of Mus musculus with 3 samples.

Results

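The C/EBP transcription factor genes *Cebpa*, *Cebpb*, *Cebpd* and *Cebpg* were followed in mouse macrophages grown from bone marrow (BMDMs) and given borrelial lipoproteins (*Bb*LP). They are 4 of the 32285 genes in the count matrices and were taken by gene symbol. The group was chosen on measured values of these libraries, because *Cebpb* had the largest early increase, so its levels and ratios are given as a description and no test was made on them. BMDMs were grown from bone marrow of female C3H/HeN mice aged 6-8 weeks. The medium was conditioned by L929 cells, a fibroblast line that secretes the macrophage growth factor M-CSF. Cells received 1 µg/mL of lipoproteins purified from *Borrelia burgdorferi*, the Lyme disease spirochete, for 1 h (LP1) or 4 h (LP4), and control cells received PBS and were collected at 4 h (Ctrl, labelled UI). All 3 groups carry no genetic change, and the purified fraction holds many lipoproteins rather than a single one. The paper's culture methods describe pooled marrow, while its single-cell methods name BMDMs of 3 mice, treated independently. The cells of 3 wells went together into 1 library per condition. The spread between cultures was therefore not measured, and every interval below covers counting error only.

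C/EBP proteins are basic leucine zipper (bZIP) factors that pair with each other or with other bZIP proteins and bind promoters and enhancers of myeloid genes. C/EBPα drives differentiation of myeloid progenitors, while C/EBPβ and C/EBPδ are known as factors of the acute phase and inflammatory response in macrophages. C/EBPγ lacks a strong activation domain and pairs with the other members and with ATF4.

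*Cebpb* (ENSMUSG00000056501) lies on the plus strand of chr2:167688915-167690418 in GRCm38 and has 1 exon. *Cebpa* (ENSMUSG00000034957, chr7:35119293-35121928, plus strand) and *Cebpg* (ENSMUSG00000056216, chr7:35046422-35056573, minus strand) are neighbours on one chromosome, and *Cebpd* (ENSMUSG00000071637) lies on the plus strand of chr16:15887286-15891031. RefSeq promoter sequences of GRCm38.p6, from 250 bases before to 50 after the annotated start, matched 3 of the 4 members, all but *Cebpd*. They are shown because the member with the largest change and the members with little change can then be compared letter by letter. Capitals mark a CRE half-site (TGACG, the core bound by CREB and ATF factors, or its reverse complement), a CCAAT box or its reverse complement, TATAAA, and the C/EBP half-site TTGCG.
*Cebpb*, chr2:167688665-167688964, plus strand: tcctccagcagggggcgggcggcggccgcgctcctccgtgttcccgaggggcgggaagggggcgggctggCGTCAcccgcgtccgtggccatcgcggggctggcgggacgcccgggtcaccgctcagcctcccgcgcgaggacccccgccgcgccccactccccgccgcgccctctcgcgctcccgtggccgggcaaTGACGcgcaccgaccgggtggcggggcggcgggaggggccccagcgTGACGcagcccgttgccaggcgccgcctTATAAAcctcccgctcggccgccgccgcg
*Cebpa*, chr7:35119043-35119342, plus strand: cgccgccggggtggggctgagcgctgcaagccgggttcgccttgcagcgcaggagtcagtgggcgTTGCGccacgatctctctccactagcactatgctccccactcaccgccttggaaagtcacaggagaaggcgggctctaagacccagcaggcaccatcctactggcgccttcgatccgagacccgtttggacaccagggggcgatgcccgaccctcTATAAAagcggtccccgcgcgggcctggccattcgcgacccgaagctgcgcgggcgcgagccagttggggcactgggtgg
*Cebpg*, chr7:35056517-35056816, minus strand: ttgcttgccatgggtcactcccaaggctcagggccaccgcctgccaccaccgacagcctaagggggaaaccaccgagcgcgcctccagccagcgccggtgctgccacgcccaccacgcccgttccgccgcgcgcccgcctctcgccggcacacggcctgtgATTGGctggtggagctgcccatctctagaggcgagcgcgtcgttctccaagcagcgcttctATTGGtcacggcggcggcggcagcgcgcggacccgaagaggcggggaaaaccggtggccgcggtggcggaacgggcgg

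The *Cebpb* window held 3 CRE half-sites, with first bases at -180, -53 and -7 when the annotated start counts as 0 and the first of them on the opposite strand. TGACG occurred on either strand in 20.8% of the 32851 promoters of this length, and neither of the other members' windows held it. *Cebpb* also held TATAAA at 21, a match to the NF-kB letters (GGGA, any 4 bases, CC) at -23, and 5 matches to GGGCGG, 2 of them overlapping, the core of an Sp1 GC box. TATAAA was present in 13.6%, the NF-kB letters in 20.7% and GGGCGG in 35.7% of all promoters. *Cebpa* held TATAAA at -30 and TTGCG at -185, which 17.4% of promoters hold. *Cebpg* held the CCAAT box, found in 37.4% of promoters, on its opposite strand at -89 and -28, as well as the NF-kB letters at -238 on that strand and GGGCGG at 44. GC content was 80.7% in *Cebpb*, 67.3% in *Cebpa* and 71.7% in *Cebpg*, against a median of 52.7%. These letter matches describe the windows and do not show that a factor was bound.

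The kept cells numbered 6071 in Ctrl, 5065 in LP1 and 4670 in LP4, with median depths of 5133, 9343 and 11784 unique molecular identifiers (UMIs, one per captured transcript). Levels below are CPM, the UMIs of a gene scaled to the same total in every library, counted at the 3′ end of transcripts. All 10 macrophage markers looked for had at least 10 CPM in every library and summed to between 16474 and 18082 CPM. 10 neutrophil markers summed to 451 to 707 CPM, 10 dendritic cell markers to 151 to 154 CPM and 6 fibroblast markers to 4.29 to 19.7 CPM, highest in LP4, whose part in the results was not tested. The lymphocyte markers *Cd3e* and *Trbc2* were at 0 in every library. Between 4 and 10 barcode sequences occurred in any pair of libraries. LP4 lost 273 barcodes to the limit on mitochondrial UMIs, against 18 in Ctrl and 43 in LP1.

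*Cebpb* stood at 98.8 CPM (95.5 to 102, exact 95% Poisson interval) in Ctrl, 346 CPM (341 to 351) in LP1 and 1657 CPM (1647 to 1667) in LP4. The level was higher at each later library, and no interval overlapped another. It was 3.50-fold higher in LP1 than in Ctrl (log2 ratio 1.81, interval 1.76 to 1.86) and 16.8-fold higher in LP4 (log2 ratio 4.07, 4.02 to 4.12). LP4 was 4.79-fold above LP1. The mean count per cell went from 0.581 UMIs in Ctrl to 3.58 in LP1 and 21.8 in LP4, and the median cell held 0, 3 and 20 UMIs. Genes with at least 50 CPM in Ctrl or LP1 numbered 3213, with mitochondrial, ribosomal protein and unnamed (Gm, Rik or numbered) genes left out. Among them the largest early log2 ratio was that of *Cebpb*. The next were *Gnb2* at 1.45, *Arf5* at 1.40 and *Ccl2* at 1.40, genes named after their values were seen. With the limit lowered to 10 CPM, and ribosomal protein and unnamed genes included, *Cebpb* ranked 2 of 7734. Above it was *Polr2h*, a subunit of the RNA polymerases, with 2.91 CPM in Ctrl and 11.5 CPM in LP1, likewise named from its value. For LP4 over Ctrl, *Cebpb* ranked 41 of 8006.

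*Cebpd*, the other member known for induction in the acute phase, stood at 7.87 CPM (6.98 to 8.85) in Ctrl, 14.2 CPM (13.2 to 15.3) in LP1 and 39.3 CPM (37.8 to 40.9) in LP4. The 3 intervals did not overlap. The level was 1.80-fold higher in LP1 (log2 ratio 0.85, 0.65 to 1.05) and 5.00-fold higher in LP4 (2.32, 2.14 to 2.504) than in Ctrl. It ranked 116 of 7734 genes early and 179 of 8006 late.

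*Cebpa* stood at 21.6 CPM (20.1 to 23.2) in Ctrl, 28.2 CPM (26.8 to 29.7) in LP1 and 26.4 CPM (25.1 to 27.7) in LP4. Both treated libraries lay above Ctrl, and their own intervals overlapped. The log2 ratio was 0.39 (0.26 to 0.51) for LP1 and 0.29 (0.17 to 0.42) for LP4. The LP4 over LP1 ratio of -0.10 (-0.20 to 0.01) became 0.00034 with TMM and 0.03 with median-of-ratios scaling, so it had no fixed sign.

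*Cebpg* stood at 36.0 CPM (34.1 to 38.1) in Ctrl, 36.8 CPM (35.2 to 38.5) in LP1 and 31.7 CPM (30.3 to 33.1) in LP4. Ctrl and LP1 overlapped and LP4 lay below both. The log2 ratio was 0.03 (-0.07 to 0.13) in LP1 and -0.19 (-0.29 to -0.08) in LP4. Those other scalings move all LP4 over Ctrl ratios up by 0.17 and 0.21, and the *Cebpg* ratio was then -0.02 and 0.02.

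At least 2-fold higher in LP1 than in Ctrl were 0.698% of 7734 genes with at least 10 CPM in either library, and 0.465% were at least 2-fold lower; of the members, *Cebpb* alone passed this fold. For LP4 over Ctrl, 10.6% of 8006 genes were higher and 9.93% lower by that fold, and 2 of the 4 members were higher (*Cebpb* and *Cebpd*) and 0 lower. For LP4 over LP1, the same 2 members were higher, against 8.76% of 7943 genes higher and 7.57% lower. The members were chosen with these values known, and nothing is read from their counts.

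**Figure D1:**
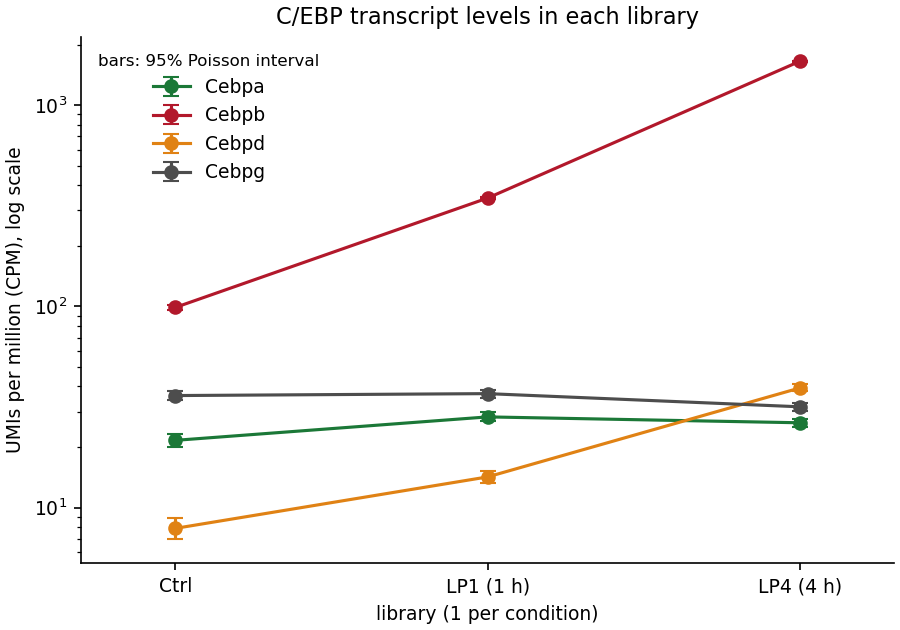
CPM (log axis) of the 4 C/EBP genes in the Ctrl, LP1 and LP4 libraries, 1 library each, with exact 95% Poisson intervals as bars and lines joining the values of a gene. *Cebpb* goes from 98.8 to 1657 CPM and *Cebpd* from 7.87 to 39.3 CPM, while *Cebpa* stays between 21.6 and 28.2 CPM and *Cebpg* between 31.7 and 36.8 CPM.

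Genes on the opposite strand overlap some members in the annotation, so their levels were read as well. *Tmem189*, which shares 908 bases with *Cebpb*, had 146 CPM in Ctrl, 134 CPM in LP1 and 108 CPM in LP4. *Spidr*, which shares 1808 bases with *Cebpd*, had 27.3, 29.8 and 33.7 CPM. Neither gene had a change of the size of its neighbour's. The antisense gene *Gm45091* at *Cebpa* had at most 3 UMIs in a library, and *Gm45095* at *Cebpg* at most 1.

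To compare cells at one depth, each cell was thinned at random to 2000 UMIs, which left out 122, 13 and 45 cells from Ctrl to LP4. The share of cells with at least 1 *Cebpb* UMI was then 17.8% in Ctrl (16.9 to 18.8%, exact binomial interval), 48.6% at 1 h (47.2 to 50.003%) and 93.3% at 4 h (92.5 to 94.0%). Without thinning the shares were 41.7%, 91.6% and 99.6%. The increase was spread over nearly all cells rather than held by a few: in LP4, 44.7% of thinned macrophage-like cells held 4 or more *Cebpb* UMIs. The variance of the thinned count divided by its mean, which is 1 for pure counting noise, was 1.06, 1.14 and 1.85 in the same order. The mean thinned counts were 0.202, 0.711 and 3.64 UMIs. This ratio can rise with the mean alone, so no change in unevenness between cells is read from it.

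*Cebpd* was detected in far fewer cells, 1.68% (1.37 to 2.04%) of thinned Ctrl cells, 2.99% (2.54 to 3.50%) of LP1 cells and 6.83% (6.12 to 7.60%) of LP4 cells, or 4.15%, 11.6% and 25.2% without thinning. The variance over mean of *Cebpd* was 1.10, 1.17 and 1.31, at mean thinned counts of 0.0177, 0.0327 and 0.0824 UMIs. These means are far below those of *Cebpb*, so the ratios of both genes do not show which was more uneven. Without thinning, the highest LP4 count was 23 *Cebpd* UMIs although the median cell held 0. *Cebpa* was found in 4.17%, 5.66% and 5.04% of thinned cells and *Cebpg* in 6.86%, 6.55% and 6.14%, whose intervals overlapped between LP1 and LP4 for *Cebpa* and among all libraries for *Cebpg*. Unthinned, these shares were 11.4%, 24.0% and 25.7% for *Cebpa* and 18.3%, 29.9% and 31.4% for *Cebpg*, and they followed the depth of the libraries.

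No cell type of the culture is known to lack C/EBP transcripts, so free RNA was gauged by *S100a9*, a neutrophil gene. After thinning it was found in 0.240%, 0.111% and 0.233% of macrophage-like cells in Ctrl, LP1 and LP4 (median depths 5065, 9041 and 11565 UMIs), and in 90.5%, 100% and 100% of the 21, 20 and 28 neutrophil-like cells (3947, 6219.5 and 9261.5 UMIs). All shares of the 4 members lay above those macrophage-like values.

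**Figure D2:**
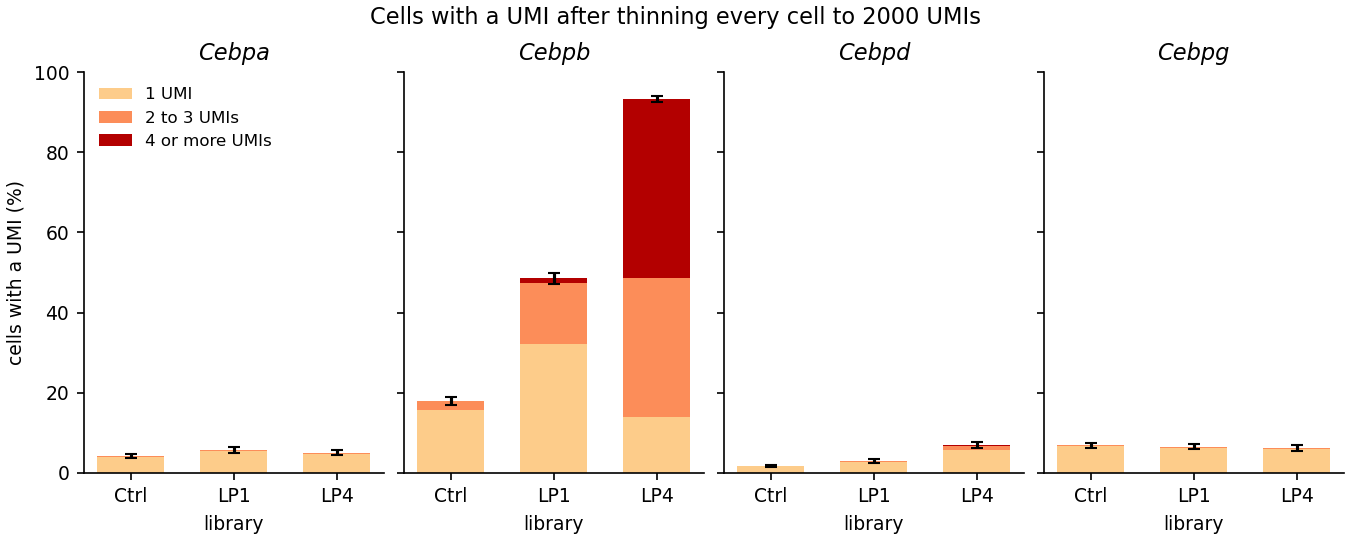
Share of cells (%) with 1, 2 to 3, or 4 or more UMIs of each C/EBP gene after thinning every cell to 2000 UMIs, by library, with exact 95% binomial intervals on the total. The *Cebpb* bar reaches 17.8%, 48.6% and 93.3% from Ctrl to LP4. The bars of the other members stay under 10%.

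Cells were clustered on variable genes that did not include the members, and 6 clusters were compared, those that each library filled with 50 cells or more. Clusters A to D carried macrophage markers (A was led by *Egr3*, *Nr4a3* and *Apoe*, B by *Ch25h* and *Psd3*, C by *F3* and *Penk*, D by *Mgll* and *Eef1a2*), E held cycling-like cells and F dendritic cell-like cells. *Cebpb* was higher in LP1 and in LP4 than in Ctrl in 6 of 6 clusters, with log2 ratios of 1.72 to 1.89 early and 3.61 to 4.41 late. The early ratios lay within 0.164 of each other and the late ones within 0.799. At a finer clustering resolution of 0.8, which gave 9 compared clusters, the early ratios were 1.53 to 1.97, a wider spread of 0.435.

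The order of *Cebpb* levels changed with time. Among the 6 in Ctrl it was lowest in cycling-like cells, at 75.1 CPM (66.6 to 84.4), and between 95.5 and 137 CPM elsewhere. In LP4 cluster A was highest at 2206 CPM (2180 to 2232), followed by F at 1788 CPM (1693 to 1886). B at 1639 CPM (1622 to 1655) and E at 1600 CPM (1565 to 1635) did not differ beyond their intervals, and C at 1453 CPM (1428 to 1478) and D at 1259 CPM (1238 to 1281) were lowest. The cycling-like cells thus started lowest and stood beside cluster B at 4 h. Cluster A had the shallowest cells of the macrophage-like clusters, with a median of 8822 UMIs in LP4 against 11484 to 16869 in B to D. *Cebpb* was lower in deeper cells of each library: the 3 equal groups of LP4 cells by depth had 2225, 1713 and 1423 CPM from shallow to deep, those of LP1 404, 347 and 323 CPM, and those of Ctrl 114, 106 and 89.3 CPM. Among cells of 5000 to 10000 UMIs alone, the log2 ratio over Ctrl was 1.99 for LP1 and 4.53 for LP4. The median depth was 5133 UMIs in Ctrl and 11784 UMIs in LP4, so this range took mainly the deeper Ctrl cells and the shallower LP4 cells. The part of that pairing in these ratios was not tested. The part of depth in the differences between clusters was not tested. The LP4 barcodes removed by the mitochondrial limit had 1395 CPM of *Cebpb*.

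*Cebpd* was also higher in LP1 and LP4 than in Ctrl in 6 of 6 clusters. The late log2 ratio was lowest in cluster A, at 1.85 (1.53 to 2.18), where the Ctrl level was highest (12.5 CPM, against 2.49 to 7.42 CPM in the others). It was 2.94 (2.33 to 3.62) in cluster D, and the value of 4.48 in cluster F rests on 1 UMI in Ctrl. In LP4 the 6 clusters spanned 33.1 CPM in D to 55.8 CPM in F, with A at 44.8 CPM (41.2 to 48.7) and B, C and E between 36.2 and 38.8 CPM with overlapping intervals.

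The few neutrophil-like cells stood apart in *Cebpd*. In 32, 24 and 28 such cells it was at 76.5 CPM (33.02 to 151), 126 CPM (73.6 to 202) and 275 CPM (213 to 350), from 8, 17 and 66 UMIs. Each value was above that of every other cluster of the same library. Their *Cebpb* level was 57.4, 134 and 1097 CPM (969 to 1238 in LP4), below that of clusters A, B, C, E and F in LP4. These cells supplied 66 of the 2415 *Cebpd* UMIs of LP4.

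*Cebpa*, nearly level over all cells, went different ways by cluster. In cycling-like cells it was 15.0 CPM (11.3 to 19.4) in Ctrl, 23.5 CPM (19.9 to 27.5) in LP1 and 32.5 CPM (27.7 to 37.9) in LP4, a late log2 ratio of 1.12 (0.67 to 1.58). They had the lowest *Cebpa* of the 6 clusters in Ctrl and the highest in LP4, where the intervals of B, C and D overlapped theirs. In cluster A the level was 19.8 CPM (16.8 to 23.2) in Ctrl, 30.5 CPM (27.1 to 34.1) in LP1 and 14.7 CPM (12.6 to 17.0) in LP4, with log2 ratios of 0.62 (0.34 to 0.91) early and -0.43 (-0.75 to -0.11) late. So *Cebpa* in CPM was above Ctrl at 1 h in this cluster and below it at 4 h. Cluster C (late ratio 0.52, 0.23 to 0.81) and cluster B (0.29, 0.07 to 0.50) were above Ctrl, and D (0.18, -0.12 to 0.48) and F (-0.62, -2.03 to 0.83) had intervals across 0. With TMM and median-of-ratios scaling the late ratio was -0.26 and -0.22 in A and 1.29 and 1.33 in E. These scalings move all LP4 over Ctrl ratios up by 0.17 and 0.21, so the interval in A then included 0. At a finer clustering resolution of 0.8 the cycling-like ratio was 1.20 (0.73 to 1.70). In place of cluster A there were then a cluster of 1678 Ctrl and 137 LP4 cells and another of 128 Ctrl and 1200 LP4 cells. Their late ratios had intervals across 0 (0.12, -0.56 to 0.74, and -0.79, -1.57 to 0.11, the latter from 14 Ctrl UMIs). The LP4 level of the second was 14.7 CPM (12.6 to 17.1). At the coarser resolution of 0.3, the matching cluster had a late ratio of -0.33 (-0.60 to -0.05). Cycling-like cells were also the deepest, with medians of 8246, 14599 and 21190 UMIs.

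*Cebpg* had late log2 ratios of -0.55 to 0.01 over the 6 clusters. It was highest in D in Ctrl (45.1 CPM, 39.6 to 51.2) and LP1 (46.0 CPM, 41.3 to 51.005), and in E it was 38.8, 39.4 and 39.0 CPM.

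**Figure D3:**
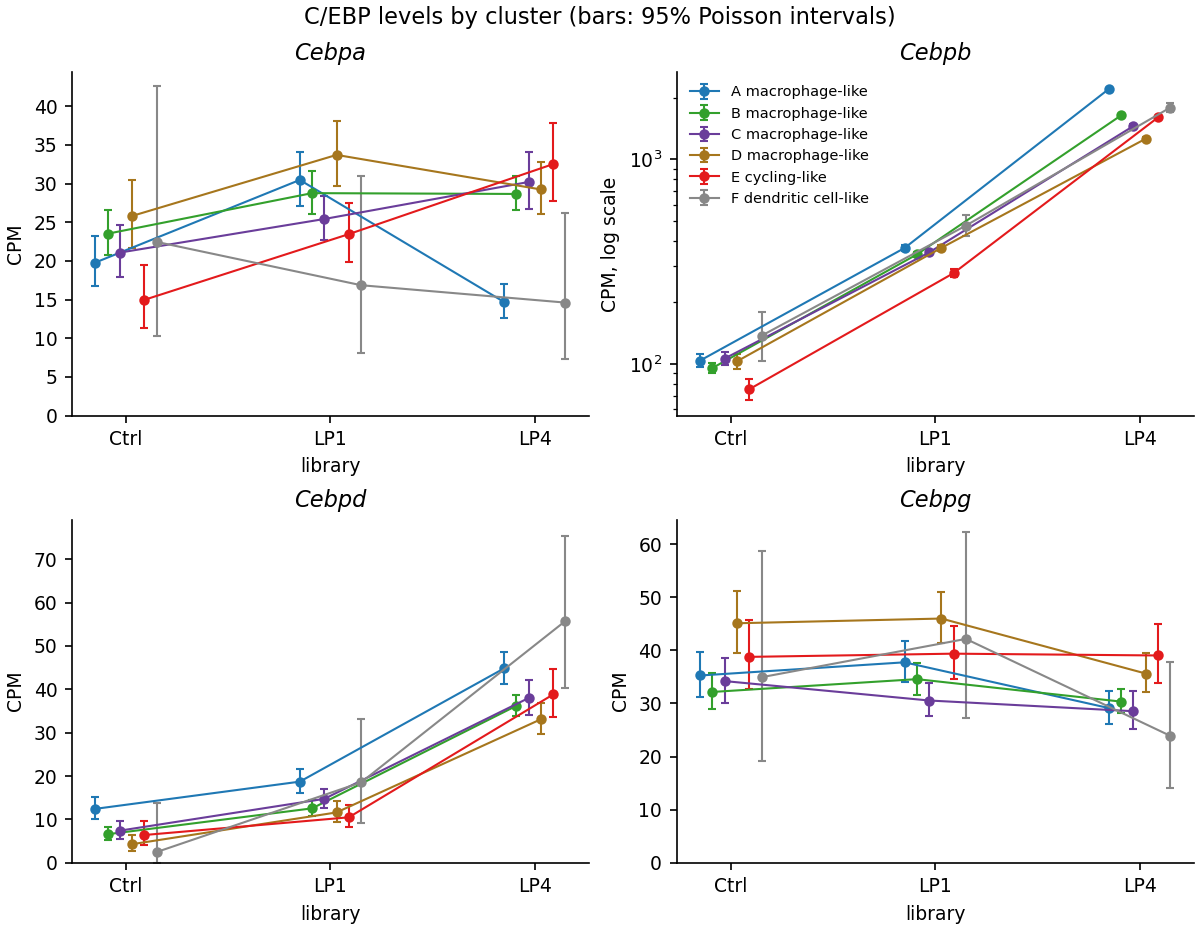
CPM of each C/EBP gene in clusters A to F of the Ctrl, LP1 and LP4 libraries (log axis for *Cebpb*), with exact 95% Poisson intervals. *Cebpb* and *Cebpd* are higher in LP4 than in Ctrl in 6 of 6 clusters, while *Cebpa* is higher in the cycling-like cluster E (15.0 to 32.5 CPM) and lower in cluster A (19.8 to 14.7 CPM) at this clustering resolution.

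Related genes outside the 4 members were read beside them. *Ddit3*, which encodes the stress-induced inhibitory partner CHOP, had 31.8, 21.9 and 12.7 CPM in Ctrl, LP1 and LP4, a late log2 ratio of -1.33 (-1.46 to -1.19). An unnamed cluster of 25, 19 and 19 cells supplied 190 of 1134, 147 of 1151 and 106 of 778 of its UMIs in these libraries. Over the 6 compared clusters, which leave that cluster out, the late ratio was below 0 in 5 and above 0 in 1. *Cebpz*, a distinct CCAAT-binding protein, had 52.6, 42.5 and 26.7 CPM (late ratio -0.98). *Cebpe*, the granulocyte member, stayed at or under 2.97 CPM. Of the 2 of these 3 genes that reached 10 CPM, 0 were 2-fold higher and 1 lower in LP4, against 10.6% and 9.93% of all genes. *Cebpzos*, the gene named as the opposite strand of *Cebpz*, was not on that list and had 13.2, 19.4 and 15.9 CPM, with log2 ratios of 0.55 (0.39 to 0.71) in LP1 and 0.26 (0.10 to 0.43) in LP4, so it lay above Ctrl in both treated libraries. The *Ddit3* symbol labels 2 rows of the matrices, and the row of ENSMUSG00000025408 was used.

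Genes of 5 further lists were read against the same background. The lists were chosen with earlier results of these data known, so no enrichment is read from their counts. The bZIP list held 13 factors that can pair with or bind beside C/EBP proteins, of which 10 reached 10 CPM in LP4 or Ctrl. In LP4, 2 were at least 2-fold higher than in Ctrl and 2 lower, against 10.6% and 9.93% of all genes. Their median log2 ratio was -0.20, against -0.07 over all genes. *Batf* went from 2.33 CPM in Ctrl and 2.61 CPM in LP1 to 21.4 CPM in LP4 (log2 ratio 3.20) and *Batf2* from 4.65 and 3.66 to 22.3 CPM (2.26). The AP-1 subunits *Fos* (712, 463 and 24.6 CPM, -4.86) and *Jun* (339, 263 and 38.1 CPM, -3.15) were the 2 lower ones. *Atf4*, the partner of C/EBPγ, stood at 88.9, 101 and 88.4 CPM. None of the 8 listed factors at 10 CPM or more in Ctrl or LP1 passed 2-fold early.

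Of 15 genes that regulate C/EBP transcription, phosphorylation or stability, 13 reached 10 CPM. 1 was higher and 2 lower in LP4, against 10.6% and 9.93% of all genes, with a median log2 ratio of 0.16. *Stat3*, the cytokine-activated factor that can induce *Cebpb* and *Cebpd*, had 69.5, 69.6 and 252 CPM (1.86). Its part in the *Cebpb* levels was not tested. *Trib1*, the adaptor that directs C/EBPα to COP1 for degradation, had 110, 96.9 and 16.4 CPM (-2.75), and *Rps6ka1*, which encodes the C/EBPβ kinase RSK1, had 166, 124 and 48.7 CPM (-1.77). *Mapk3*, which encodes the kinase ERK1, had 54.3, 89.1 and 98.8 CPM, with log2 ratios of 0.71 early and 0.86 late. *Cop1* stood at 84.5, 97.0 and 89.1 CPM. *Creb1*, whose protein binds CRE sites, stood at 83.8, 84.3 and 60.6 CPM. *Celf1*, which encodes an RNA-binding protein linked to the choice of C/EBPβ isoform, had 86.6, 93.3 and 123 CPM.

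Of 10 transcription factors that work with C/EBP proteins in myeloid cells, 6 reached 10 CPM. In LP4, 0 were higher and 3 lower (median log2 ratio -1.06), against 10.6% and 9.93% of all genes. Among the lower ones, *Klf4* had 56.6, 43.0 and 12.5 CPM (-2.18) and *Runx1* 593, 521 and 215 CPM (-1.46). *Spi1*, which encodes the macrophage lineage factor PU.1, stood at 561, 512 and 506 CPM. 0 of the 6 passed 2-fold in LP1.

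Of 16 inflammatory genes known as C/EBP targets, 14 reached 10 CPM in LP4 or Ctrl. In LP4, 12 were higher and 1 lower, against 10.6% and 9.93% of all genes, with a median log2 ratio of 1.64. The inducible nitric oxide synthase *Nos2* had 0.392, 0.152 and 190 CPM (14, 8 and 11689 UMIs), *Il6* 1.09, 1.45 and 24.7 CPM and the acute phase gene *Saa3* 61.1, 43.7 and 993 CPM. These 3 had the largest late log2 ratios of the list, 8.92, 4.50 and 4.02, and none was 2-fold higher in LP1. The exceptions in LP4 were *Tnf* (840, 1119 and 280 CPM, -1.58) and *Il10* (100.3, 105 and 141 CPM, 0.49). In LP1, 2 of 10 were higher and 0 lower, against 0.698% and 0.465% of all genes. These 2 were the chemokines *Ccl2* (66.5 to 175 CPM) and *Ccl3* (133 to 266 CPM). As the list was made with earlier results known, its counts are a description only. Of 14 differentiation genes, 9 reached 10 CPM, and 2 were higher and 0 lower in LP4 (median 0.23), against the same shares of all genes. *Cd14*, the co-receptor of bacterial lipoproteins and LPS, had 291, 597 and 1399 CPM (2.26) and was also the 1 gene of this list that was 2-fold higher in LP1. The G-CSF receptor gene *Csf3r* had 35.2, 29.7 and 78.8 CPM (1.16), and *Csf1r*, the M-CSF receptor gene, 769, 522 and 421 CPM (-0.87).

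**Figure D4:**
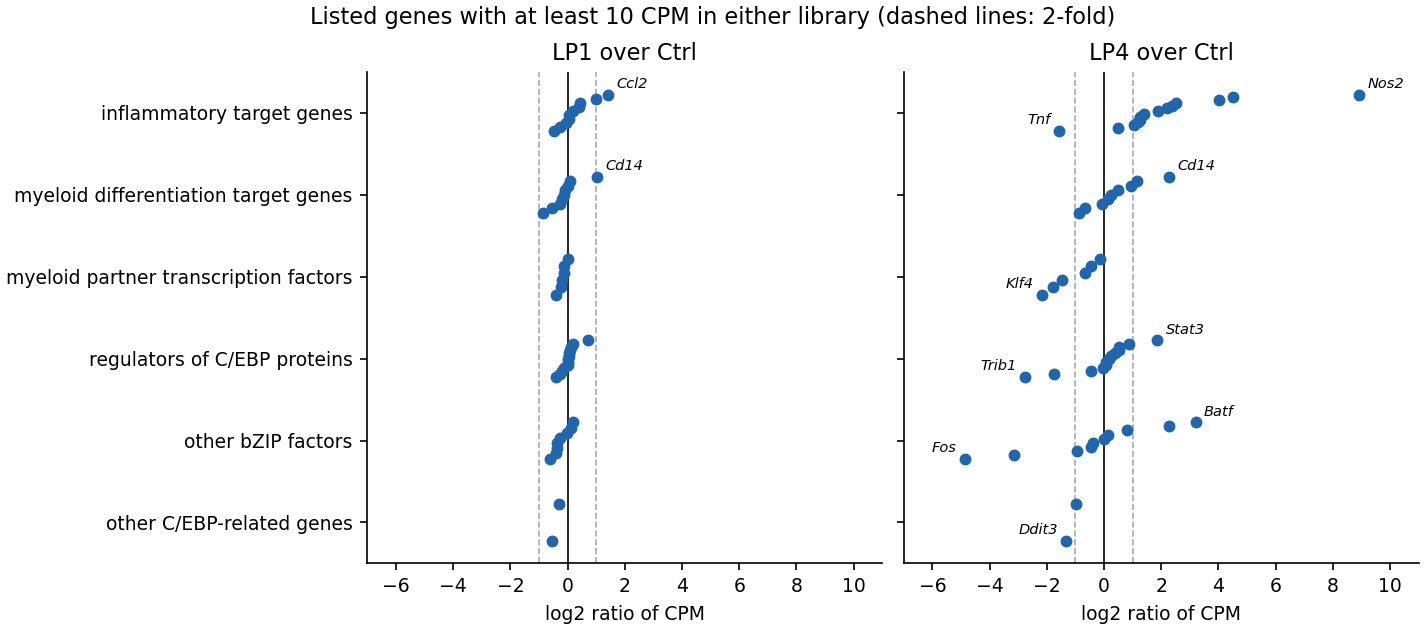
log2 ratio of CPM for LP1 (left) and LP4 (right) over Ctrl of the listed genes with at least 10 CPM in either library, 1 point per gene. Past the dashed 2-fold lines in LP4 lie 12 higher and 1 lower of 14 inflammatory targets and 0 higher and 3 lower of 6 partner factors. Of all genes, 10.6% were higher and 9.93% lower.

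Likeness of pattern was measured as the distance between the pairs of log2 ratios (LP1 and LP4 over Ctrl) among 3640 genes with at least 50 CPM in a library, over 3 libraries. Mitochondrial, ribosomal protein and unnamed genes were left out of these. No gene lay within 0.25 of *Cebpb*. The nearest were the chemokine *Ccl4* (distance 0.61; 114, 290 and 2524 CPM), the cytokine signal inhibitor *Socs3* (0.99; 52.3, 98.9 and 648 CPM), *Sod2*, *Inhba* and *Timp1*. *Cebpd* had 3 genes within 0.25, *Cd14* (0.19), *Ccl3* (0.23) and *B2m* (0.24), and then *Zfp36* and *Bcl2a1d*. *Cebpa* had 217 within that distance, led by *Vps29*, *Sec11a*, *Irf5*, *Arpc4* and *Dnajc21*. *Cebpg* had 606, led by *Baz2b*, *Sel1l*, *Glud1*, *Cct3* and *Trappc3*.

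Across single cells the rank correlation of *Cebpb* with other genes was weak. In thinned macrophage-like cells of a library, 0 genes reached a positive Spearman rho of 0.2, the lowest rho was -0.24 (in LP4), and pairs of members lay between -0.03 and 0.04. To describe the gradient with more counts, macrophage-like cells of 5000 to 10000 UMIs were ordered by the share of *Cebpb* in their UMIs, and the 25% with most were summed beside the 25% with least. In LP4 these were 345 and 345 cells, with *Cebpb* at 3767 and 937 CPM, median depths of 7867 and 8357 UMIs and median mitochondrial shares of 2.84% and 3.23%. Cluster A made up 76.2% of the first and 39.4% of the second. In Ctrl the 583 cells with least had *Cebpb* at 0 CPM, and ties were broken by cell order. The Ctrl values below therefore do not show whether a difference was absent there. The genes below were chosen from these cells for the size of their difference, after their values were seen, so they are a description only.

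*Cebpd* was among the 8 genes that differed most toward the cells with most *Cebpb* in LP4, at 68.1 CPM (58.6 to 78.8) against 24.99 CPM (19.5 to 31.6). In LP1 it was 16.6 against 13.9 CPM and in Ctrl 5.90 against 6.199 CPM. The chemokine gene *Ccl24* (122 against 26.4 CPM), the nuclear receptor *Nr4a3* (89.9 against 22.5 CPM) and the immediate early gene *Ier3* (981 against 349 CPM) also differed this way in LP4. Within clusters these differences were not uniform: *Ier3* was 1235 against 618 CPM in A but 166 against 248 CPM in C, *Nr4a3* was 109 against 44.2 CPM in A and 10.6 against 10.7 CPM in C, and *Ccl24* was 129 against 35.0 CPM in A and 7.58 against 15.7 CPM in B. Toward the cells with least *Cebpb* were *Ccnd1*, which encodes cyclin D1 (9.78 against 66.4 CPM), the macrophage elastase *Mmp12* (159.9 against 622 CPM) and the lipoprotein lipase *Lpl* (662 against 2144 CPM). Within clusters the gap in *Mmp12* was smaller, at 55.9 against 99.03 CPM in A, 157 against 275 CPM in B and 1080.0 against 1421 CPM in C, and so was that in *Lpl*, at 204 against 358, 2066 against 2962 and 2509 against 3563 CPM. In these sentences the cells with most *Cebpb* come first. In Ctrl, where the cells with least were tied at 0 CPM of *Cebpb*, the same *Mmp12* values were 653 and 668 CPM. Those of *Lpl* were 2154 and 2319 CPM. *Cebpa* (29.7 and 28.6 CPM) and *Cebpg* (31.2 and 33.9 CPM) had overlapping intervals in LP4.

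The inflammatory targets did not share one direction along this order. In LP4 the cells with most *Cebpb* had more *Tnf* (316 against 193 CPM), *Il1b* (1836 against 1228 CPM) and *Saa3* (1278 against 849 CPM), and less *Nos2* (145 against 207 CPM) and *Il6* (14.3 against 27.1 CPM). For *Tnf*, *Il1b* and *Saa3*, values within clusters are not reported here. The part of the unequal cluster mix (76.2% and 39.4% in cluster A) in their differences was not tested. Over all thinned LP4 macrophage-like cells, *Nos2* did not fall along the *Cebpb* count, with 198, 164, 186 and 191 CPM in cells of 0, 1, 2 to 3 and 4 or more UMIs, and *Il6* had 28.5, 34.2, 23.3 and 20.2 CPM. In the same bins *Il1b* had 792, 910, 979 and 1327 CPM and *Saa3* 633, 853, 977 and 1165 CPM, both higher at each step. *Tnf* had 226, 215, 271 and 310 CPM. Within cluster A alone, 189 cells a side, *Nos2* was 173 CPM (152 to 196) against 231 CPM (207 to 257), *Il6* 16.8 against 47.5 CPM and *Cebpd* 64.3 CPM (51.9 to 78.9) against 31.03 CPM (22.8 to 41.3). Within cluster B, 98 cells a side, *Nos2* was 112 CPM (90.3 to 138) against 287 CPM (252 to 326) and *Cebpd* 21.5 against 24.1 CPM, so the difference in *Cebpd* was not seen there. Within cluster C, 48 cells a side, *Nos2* was 169 against 134 CPM and *Cebpd* 47.5 against 24.0 CPM, each with overlapping intervals.

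**Figure D5:**
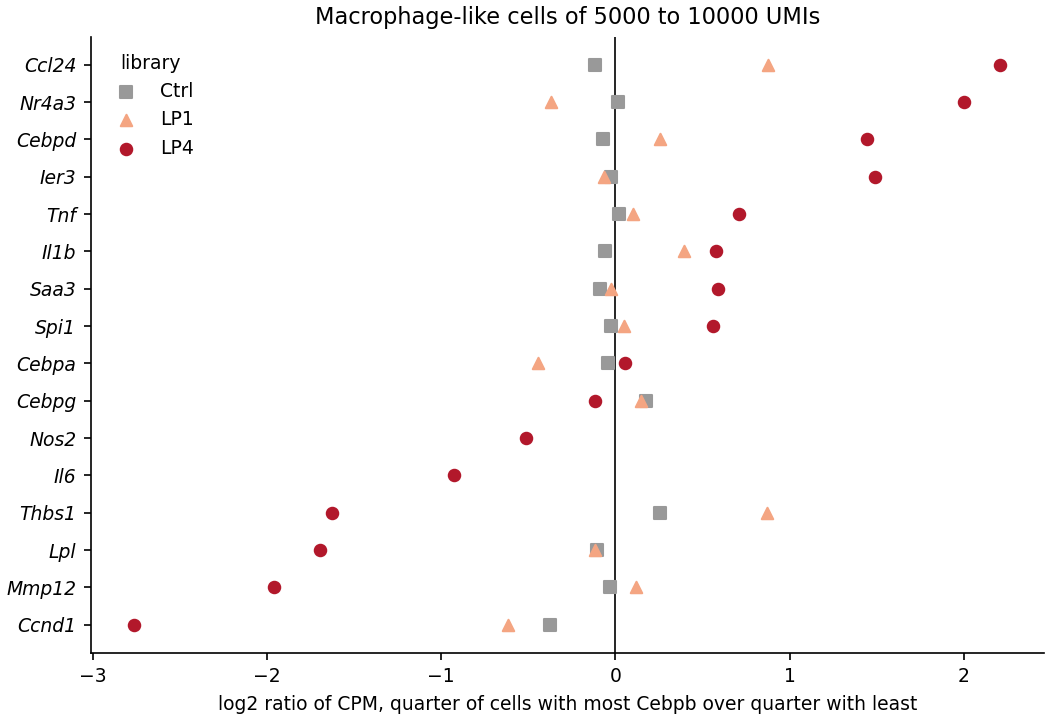
log2 ratio of CPM between the 25% of macrophage-like cells (5000 to 10000 UMIs) with most *Cebpb* and the 25% with least, for genes with at least 20 UMIs on each side, in Ctrl (squares), LP1 (triangles) and LP4 (circles). In LP4 *Cebpd* lies to the right (68.1 against 24.99 CPM) and *Nos2* (145 against 207 CPM) and *Mmp12* (159.9 against 622 CPM, a gap that was smaller within clusters) to the left. The Ctrl cells with least were tied at 0 CPM of *Cebpb*.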

How the data were processed

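The data are droplet-based 3′ single-cell RNA-seq of BMDMs, 1 library each for Ctrl, LP1 and LP4. The authors deposited raw UMI counts of each gene in each barcode, made with Cell Ranger (7.1.0 per the file headers and the submitters' processing notes) on the mouse mm10 transcriptome, in barcodes called as cells. The files hold 6123, 5119 and 5039 barcodes. The study's limits (over 500 UMIs, over 500 genes, under 5% mitochondrial UMIs) kept 6071, 5065 and 4670 cells with 35688939, 52475723 and 61402275 UMIs. Counts were summed over kept cells and scaled to CPM. Intervals are exact at 95% (Poisson for CPM, conditional binomial for ratios, Clopper-Pearson for shares) and reflect the error of counting alone. No test was run, since each condition is 1 library, and a gene past the fold has a log2 ratio of at least 1 in size among genes with at least 10 CPM in either library. Strand use in the counting is not given in the sources used here.

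Cells were clustered on counts brought to 10000 a cell, log-transformed and centred within each library, using 2000 variable genes out of 5238 whose level differed by less than 1.5-fold between libraries (members left out), 30 principal components, 20 neighbours and Leiden resolution 0.5. A type name needed 3 of its markers. Doublets were not removed for the main values. Removing the 5% of cells with the highest doublet score was an alternative. Named genes are the members, *Cebpe*, *Ddit3* and *Cebpz*, from each list the 3 highest and 3 lowest late ratios with at least 20 CPM in Ctrl or LP4 (with others that a sentence needed), and the 5 nearest in pattern. Single values of some listed genes are not reported here. The members and lists were chosen with earlier results of these data known. The scripts were tested on simulated counts. Tools were Python 3.11.15, scanpy 1.11.5, scipy 1.17.1 and, for other scalings, R 4.3.3 with edgeR 4.0.16 (TMM) and DESeq2 1.42.0 (size factors). Other alternatives were other cell filters, macrophage-like cells alone, other thinning depths, resolutions, folds and CPM limits.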

Additional observations from a re-analysis of the deposited data

Results flagged for a closer look

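In CPM, the ratio of *Cebpa* had opposite signs in different clusters, with counting intervals that excluded 0 on both sides. For LP4 over Ctrl the log2 ratio was -0.43 in macrophage-like cluster A, and 0.29 in cluster B, 0.52 in cluster C and 1.12 in the cycling-like cluster E. With TMM and median-of-ratios scaling this ratio was -0.26 and -0.22 in cluster A, and its interval there included 0. For LP4 over LP1 it was -1.05 in cluster A, 0.25 in cluster C and 0.47 in cluster E. At the coarser resolution of 0.3 the cluster matching A had -0.33 for LP4 over Ctrl and -0.90 for LP4 over LP1. At the finer resolution of 0.8 the clusters in place of A had late ratios whose intervals included 0. With 1 library per condition the difference between clusters was not tested.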

How the results depend on the processing

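No paired analysis was possible because each condition is 1 library, which leaves no second pair. Of 96 recomputed log2 ratios of the members, 71 moved by less than their counting interval, 22 moved by more with the sign kept and 3 reversed. For *Cebpb*, LP1 over Ctrl was 1.88 with TMM, 1.88 with median-of-ratios scaling and 1.99 in cells of 5000 to 10000 UMIs. LP4 over Ctrl was 4.24, 4.27 and 4.53 there, and 4.12 as a mean of cell shares. For *Cebpd*, LP4 over Ctrl was 2.53 with median-of-ratios scaling and 2.57 in cells of that depth. For *Cebpa* it was 0.46 with TMM and 0.50 with median of ratios. For *Cebpg* it was -0.0169 with TMM and 0.0205, reversed, with median of ratios. The LP4 over LP1 ratio of *Cebpa* reversed to 0.00034 and 0.0334 in those scalings. These scalings shift all ratios by a constant. At resolution 0.3, which leaves 3 clusters, the lowest early ratio over clusters became 0.30 for *Cebpa* and 0.0081 for *Cebpg* and the highest late ratio of *Cebpg* became -0.0248, signs opposite to those with 6 clusters. All ratios of *Cebpb* and *Cebpd* over Ctrl kept their sign in the alternatives run.

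Thinned to 1000 UMIs, the shares of cells in Ctrl, LP1 and LP4 were 9.83%, 29.4% and 78.1% for *Cebpb*, 1.06%, 1.46% and 3.87% for *Cebpd*, 2.23%, 2.59% and 2.75% for *Cebpa*, and 3.42%, 3.30% and 2.62% for *Cebpg*. Thinned to 4000, they were 32.5%, 72.1% and 98.6% for *Cebpb*, 2.62%, 5.27% and 11.4% for *Cebpd*, 8.29%, 10.1% and 9.48% for *Cebpa*, and 13.5%, 13.5% and 11.9% for *Cebpg*. With a limit of 50 CPM, 0 of 5 bZIP factors were higher in LP4, since *Batf* and *Batf2* lie under it. At 1.5-fold in place of 2-fold, 2 regulators were higher and 2 differentiation genes lower in LP4. In cluster F of Ctrl, *Cebpd* rests on 1 UMI.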
